A study of Mus musculus with 12 samples.

Results

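Epithelial-mesenchymal transition (EMT) regulators and markers were followed in C57MG cells, a mouse mammary epithelial cell line, after treatment with 2 secreted proteins of the Wnt pathway. The set held 10 genes chosen by symbol: the transcription factors *Twist1*, *Twist2*, *Snai1*, *Snai2*, *Zeb1* and *Zeb2*, the epithelial adhesion gene *Cdh1*, and the mesenchymal genes *Cdh2*, *Vim* and *Fn1*. All spots other than the array's controls whose annotated name was one of these symbols, or an older name of *Zeb1* or *Zeb2*, were taken, which gave 18 probes out of 41174 distinct probes on the array, which name 28786 gene symbols. Of these probes, 5 carried an older name, and 6 of the 10 genes had a single probe.

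Monolayers in plain DMEM received 100 ng/ml recombinant human R-spondin2 (Rspo2), 100 ng/ml recombinant mouse Wnt3a, both proteins at these doses, or the carrier protein bovine serum albumin (BSA) as the control. RNA was taken after 24 h, and each of the 4 groups had 3 monolayers, each hybridized to its own 1-colour Agilent array. All 12 samples came from 1 cell line at 1 dose and 1 time, so the p-values below measure the spread between monolayers of that line. The comparisons asked what each protein did alone, what both did together, what Rspo2 added to Wnt3a, and whether the joint change differed from the sum of the single changes.

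In EMT, epithelial cells give up their junctions and take on a migratory, matrix-producing form. The TWIST, SNAIL and ZEB factors bind E-box sequences and repress epithelial genes such as *Cdh1*, which encodes E-cadherin, while N-cadherin (*Cdh2*), vimentin (*Vim*) and fibronectin (*Fn1*) are classical markers of the mesenchymal state. Wnt ligands stabilize beta-catenin, which acts on target genes with TCF/LEF factors and also binds E-cadherin at the membrane, and R-spondins raise the response of a cell to Wnt ligands.

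Levels are given as the log2 of a probe's processed signal over the 75th percentile of its array, so that 1 unit is a 2-fold difference, and levels of different probes are not compared with each other. Between 51.28% and 64.15% of probes per array were well above background, with the highest share on BSA array 1, and the 75th percentile lay between 773.9 and 1146 intensity units. The arrays shared 3 slides of 4 arrays, and the groups were not spread evenly over them. Slide 1 held the 3 BSA arrays and Rspo2 array 1, slide 2 held Rspo2 arrays 2 and 3 with Wnt3a arrays 1 and 2, and slide 3 held Wnt3a array 3 with the 3 combination arrays. The BSA and combination groups therefore shared no slide, and a comparison made within a slide was possible only for Rspo2 array 1 against BSA, for Wnt3a against Rspo2, and for the combination against Wnt3a array 3. When slide was added to the fit, none of the 18 changes of EMT probes that passed the test below kept an adjusted p under 0.05, but all 18 kept their direction. Their sizes stayed within 1.5 times of the values without the term for 15 of them, were larger than that for *Twist2* and *Zeb2* probe A_51_P121206 with both proteins (-0.59 and 0.96), and smaller for *Zeb1* with both (0.13). In the same fit 500 of 22750 detected probes were called for the combination, where 1155 were called without the slide term. Slide and treatment cannot be told apart fully in this layout. Within-slide values are given below for *Twist1*, *Twist2*, *Snai1*, *Zeb1*, *Zeb2* and *Vim*. None were computed for the marker genes, the related lists or the genes like *Twist1* in pattern.

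The label of the cells was set against marker genes. Among 8 markers of luminal mammary epithelium 4 were detected, and *Epcam*, *Krt18*, *Krt19* and *Elf5* were not. Among 8 basal or myoepithelial markers 5 were detected, among 9 fibroblast markers 6, among 7 leukocyte markers 4 and among 5 endothelial markers 1. Over the whole array, counted by probe, 22750 of 41174 were detected. The summed signal of the basal list, as a multiple of the 75th percentile, was 133 to 141 in BSA cultures, 171 to 193 after Rspo2, 185 to 206 after Wnt3a and 220 to 258 after both. *Acta2* made up 89.1% to 93% of that sum, and the markers did not move together: with both proteins *Acta2* rose by 0.78 and *Krt14* by 1.24, *Krt17* (-0.35) and *Trp63* (-0.40) fell, and *Krt5* did not pass (0.22). The summed signal of the fibroblast list was 118 to 132 in BSA cultures, 87.9 to 103 after Rspo2, 99 to 107 after Wnt3a and 94.3 to 114 after both. With both 4 of its 6 detected genes fell and none rose, where 17.3% of all detected probes fell and 21.9% rose. The luminal list summed to 8.64 to 9.37 with BSA and 9.8 to 12.6 in the other groups, of which *Cd24a* made up 94.1% to 97.3%. *Cd24a* rose with Rspo2 (0.37) and with Wnt3a (0.33), while *Krt8* fell with both proteins by 1.15 (adjusted p = 0.000365). The leukocyte list summed to at most 0.532 in any group, and the endothelial list to 2.44 to 2.61 with BSA and 1.64 to 1.91 in the other groups. The part of these lists in the results on the EMT genes was not tested, and in a culture measured as a whole, fewer cells of a kind and less RNA per cell cannot be told apart.

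Upstream sequence is shown for the 3 members that the results turn on, *Twist1* as the member with the largest tested rise, and *Snai1* and *Zeb2* as the members whose joint response differed from the sum of the single ones. The 250 bases before the annotated start are given in the direction of transcription, from RefSeq on build GRCm38.p6, with any E-box or TCF/LEF motif in capitals. *Twist1* lies on the plus strand at chr12:33957421-33957670, *Snai1* on the plus strand at chr2:167537945-167538194, and the first of 4 *Zeb2* windows in the table on the minus strand at chr2:45117443-45117692.
Twist1: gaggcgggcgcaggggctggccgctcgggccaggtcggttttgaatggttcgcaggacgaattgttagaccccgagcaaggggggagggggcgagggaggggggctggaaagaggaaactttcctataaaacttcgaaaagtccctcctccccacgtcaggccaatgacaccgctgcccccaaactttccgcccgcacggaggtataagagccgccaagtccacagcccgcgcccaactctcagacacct
Snai1: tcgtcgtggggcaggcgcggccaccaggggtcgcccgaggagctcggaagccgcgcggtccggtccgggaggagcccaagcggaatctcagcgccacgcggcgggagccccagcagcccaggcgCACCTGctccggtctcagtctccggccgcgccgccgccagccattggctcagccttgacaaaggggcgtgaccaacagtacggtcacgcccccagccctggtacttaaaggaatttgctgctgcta
Zeb2: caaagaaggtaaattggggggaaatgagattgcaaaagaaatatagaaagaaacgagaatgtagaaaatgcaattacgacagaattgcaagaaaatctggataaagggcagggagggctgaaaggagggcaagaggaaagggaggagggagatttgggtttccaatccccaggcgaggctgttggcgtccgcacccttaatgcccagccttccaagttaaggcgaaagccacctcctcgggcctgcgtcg
The E-box was searched as CANNTG, its form preferred by SNAIL and ZEB factors as CACCTG, which is itself an E-box, and the TCF/LEF motif as any of 4 forms, each on both strands. These forms were CTTTGAA and its variant CTTTGAT, together with the form CTTTGTA and its variant CTTTGTT. Windows of 5 members were used (*Twist1*, *Twist2*, *Snai1*, *Zeb2* and *Vim*, 8 windows in all), and 1 of the 8 held a match, the CACCTG of *Snai1* that begins 126 bases before the start. Of the 8 windows 4 were of *Zeb2*, and windows 2 and 3 of that gene overlapped, so the 8 were not separate promoters. Over 32851 windows of the same length in the table, 66.2% held an E-box, 17.2% a CACCTG and 14.8% a TCF/LEF motif. Windows of *Snai2*, *Zeb1*, *Cdh1*, *Cdh2* and *Fn1* were not used here.

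A probe was tested if the 3 arrays of 1 group or more all read it as well above background. Of the 18 probes 14 met this, each of them on all 12 arrays. They covered 9 of the 10 genes, since *Cdh1* had no tested probe. To be called, a probe needed an adjusted p under 0.05 over all 22750 detected probes and a change of at least 2-fold. By this rule 1 EMT probe was called, *Twist1* with both proteins, where 5.08% of all detected probes were called. No EMT probe was called with Rspo2 alone, with Wnt3a alone, for the combination against Wnt3a or for the interaction, where 0.721%, 2.52%, 0.747% and 1.93% of all detected probes were called. At an unadjusted p under 0.05 these comparisons held 3, 4, 6 and 5 of the 14 probes, beside 35%, 43%, 18.4% and 29.3% of all detected probes.

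At any fold, *Snai1* passed the adjusted threshold with Rspo2 alone, which was 1 of 14 probes beside 16.8% of all detected probes, 10.9% higher and 5.93% lower. With Wnt3a alone 4 of 14 passed, all higher (*Twist1*, *Snai1*, *Vim* and 1 probe of *Zeb2*), beside 31.5% of all probes in either direction, 18.3% higher and 13.2% lower. With both proteins 7 of 14 passed, beside 39.2%. Of these, 5 were higher (*Twist1*, *Zeb1* and 3 probes of *Zeb2*) and 2 lower (*Twist2* and *Snai1*), where 21.9% of all probes were higher and 17.3% lower. For the combination against Wnt3a 3 of 14 passed beside 4.27%, with *Twist1* and 1 probe of *Zeb2* higher beside 1.78% and *Snai1* lower beside 2.49%. For the interaction 3 of 14 passed beside 8.9%, with 2 probes of *Zeb2* above the sum of the single changes beside 3.58% and *Snai1* below it beside 5.31%.

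The median change of the 14 probes was 0.05 with Rspo2, 0.08 with Wnt3a, 0.09 with both and 0.12 for the combination against Wnt3a, and that of all detected probes was 0.01, 0.00, 0.04 and 0.00. The 3 arrays of a treatment did not overlap the 3 BSA arrays for 6 probes with Rspo2, 5 with Wnt3a and 7 with both, beside 43.5%, 45.5% and 54% of all detected probes. The combination did not overlap Wnt3a for 6 of the 14, beside 21.4%. For 1 probe alone an exact permutation test of 3 arrays against 3 cannot give a two-sided p below 0.1, so the tests rest on the limma fit across all detected probes. The 3 comparisons with BSA share the same 3 control arrays and are not independent of each other.

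**Figure D1:**
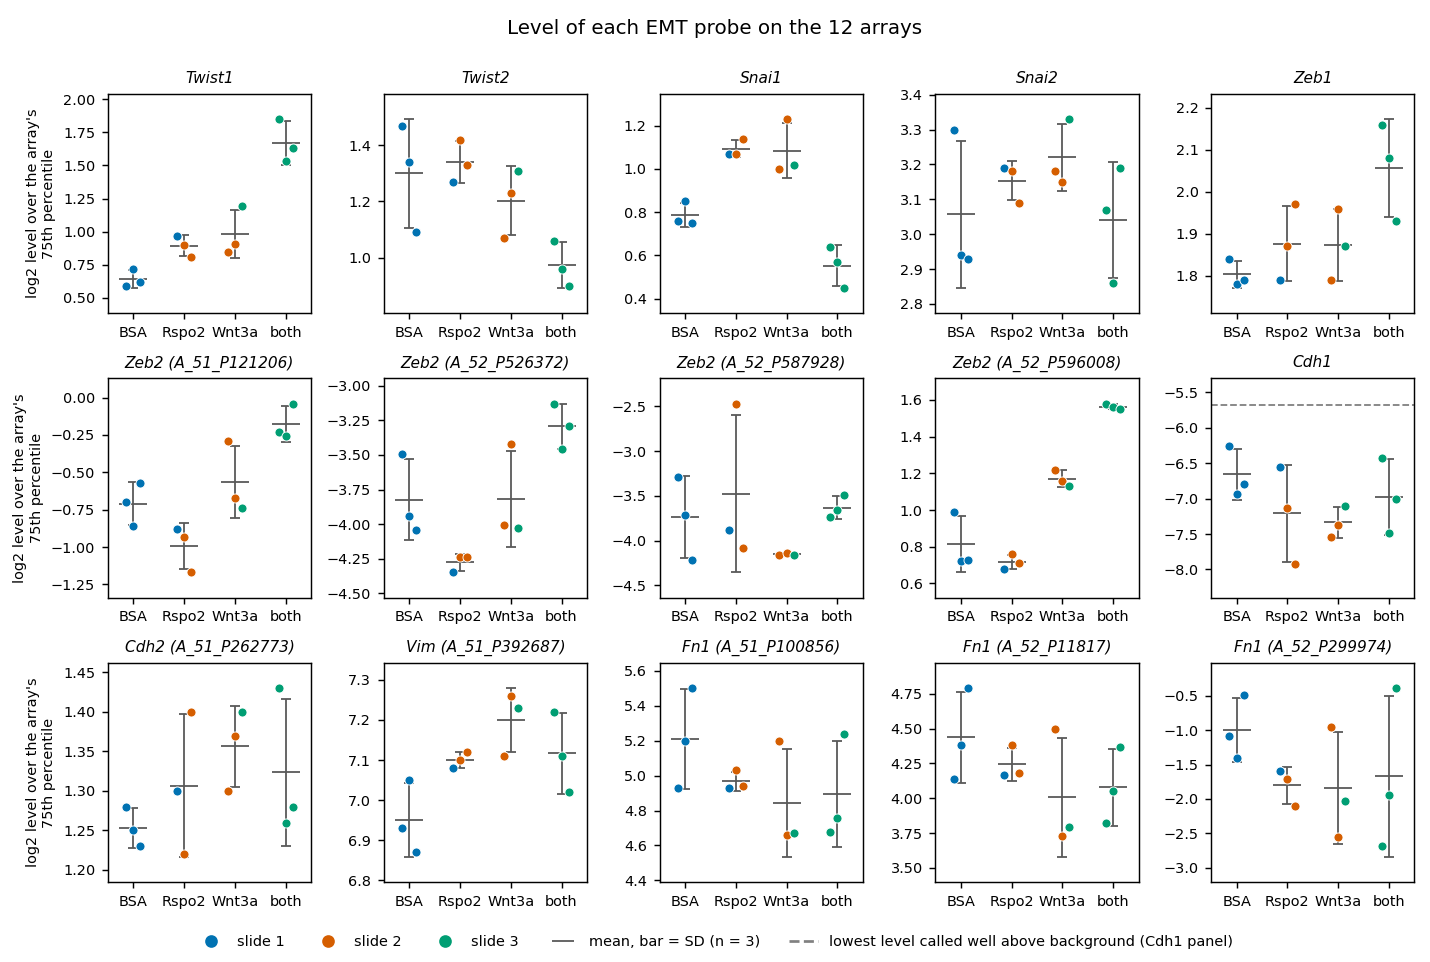
Level of the 14 tested EMT probes and of *Cdh1* on each of the 12 arrays (log2 over the 75th percentile of the array, vertical axes differ between panels), coloured by slide, with the mean and SD of the 3 arrays of each group. *Twist1* lay highest in the combination group (1.53 to 1.85) and *Snai1* lowest there (0.45 to 0.64), while *Cdh1* stayed under the dashed line at -5.68, the lowest level called well above background on any array.

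*Twist1*, a basic helix-loop-helix factor that represses E-cadherin, rose with Wnt3a alone and further with both proteins. Its level was 0.59, 0.72 and 0.62 on the BSA arrays, 0.97, 0.90 and 0.81 with Rspo2, 0.85, 0.91 and 1.19 with Wnt3a, and 1.85, 1.53 and 1.63 with both. Every treated array lay above every BSA array, the combination lay above all others, and the Rspo2 and Wnt3a arrays overlapped. The change against BSA was 1.02 with both (SE 0.11, 95% interval 0.78 to 1.27, adjusted p = 6.61e-05), or 2.03-fold. With Wnt3a it was 0.34 (SE 0.11, adjusted p = 0.0376) and with Rspo2 0.25 (SE 0.11, adjusted p = 0.136, not past the threshold). The combination exceeded Wnt3a by 0.69 (SE 0.11, adjusted p = 0.00523). The joint change was 0.44 above the sum of the single ones, which did not pass (95% interval 0.10 to 0.78, adjusted p = 0.0952).

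The call of *Twist1* lay close to the 2-fold limit. The change with both kept an adjusted p of at most 0.000502 with any of the 12 arrays left out, but its size fell under 2-fold without BSA array 1 (1.00, just short of the limit) or combination array 1 (0.93), with quantile normalization (0.97) and with the percentile taken over probes bright on all arrays (0.91). With slide as a term it was 0.83 (adjusted p = 0.103). Within slide 3 the combination exceeded Wnt3a array 3 by 0.48, within slide 1 Rspo2 array 1 exceeded the BSA mean by 0.32, and within slide 2 Wnt3a exceeded Rspo2 by 0.03. The smaller rise with Wnt3a lost the threshold without any 1 of the 3 BSA arrays, Rspo2 array 2, or Wnt3a array 2 or 3, with adjusted p up to 0.111.

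*Twist2*, the close paralog of *Twist1*, moved the other way with both proteins. Its level was 1.47, 1.34 and 1.09 with BSA, 1.27, 1.42 and 1.33 with Rspo2, 1.07, 1.23 and 1.31 with Wnt3a, and 1.06, 0.96 and 0.90 with both. The combination arrays lay below all others, and BSA, Rspo2 and Wnt3a overlapped. The change with both was -0.33 (SE 0.11, adjusted p = 0.0325), and it was 0.04 with Rspo2 (95% interval -0.20 to 0.28) and -0.10 with Wnt3a (-0.34 to 0.14), neither past the threshold. The fall with both was lost without BSA array 1 or 2 or combination array 2 or 3 (adjusted p up to 0.116). Within slide 3 the combination less Wnt3a array 3 was -0.33.

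*Snai1*, a zinc finger repressor of *Cdh1* and often the earliest of these factors in EMT, rose with each protein alone and fell with both. Its level was 0.76, 0.85 and 0.75 with BSA, 1.07, 1.07 and 1.14 with Rspo2, 1.00, 1.23 and 1.02 with Wnt3a, and 0.64, 0.57 and 0.45 with both. The Rspo2 and Wnt3a arrays overlapped each other and lay above the BSA arrays, and the combination arrays lay below them. The change against BSA was 0.31 with Rspo2 (SE 0.08, adjusted p = 0.0355), 0.30 with Wnt3a (SE 0.08, adjusted p = 0.022) and -0.23 with both (SE 0.08, adjusted p = 0.0472). The combination was 0.692 times Wnt3a alone, a log2 change of -0.53 (SE 0.08, adjusted p = 0.005). The joint change was 0.84 below the sum of the single changes (-0.84, 95% interval -1.10 to -0.58, adjusted p = 0.00383).

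For *Snai1* the interaction and the difference from Wnt3a held with each of the 12 arrays left out (adjusted p at most 0.0137 and 0.0265), and all 3 changes against BSA were less stable. The rise with Rspo2 was lost without any 1 BSA or Rspo2 array or combination array 2 (adjusted p up to 0.116), the rise with Wnt3a without BSA array 1 or 3 or Wnt3a array 2 (up to 0.0807), and the fall with both without any 1 BSA or Rspo2 array, Wnt3a array 1, or combination array 2 or 3 (up to 0.146). With normexp background correction, relative to the shift in the median of all probes, the change with both was -0.03 and that with Rspo2 0.09. With slide as a term the interaction was -0.75 (adjusted p = 0.109). Within slides, Rspo2 array 1 exceeded the BSA mean by 0.28, Wnt3a exceeded Rspo2 by 0.01, and the combination differed from Wnt3a array 3 by -0.46.

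*Snai2*, which encodes the related repressor Slug and is a factor of basal mammary cells, passed the threshold in no comparison. Its level ran from 2.93 to 3.30 in BSA cultures, from 3.09 to 3.19 after Rspo2, from 3.15 to 3.33 after Wnt3a and from 2.86 to 3.19 after both, and all groups overlapped. The change with both was -0.02 (95% interval -0.27 to 0.24).

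*Zeb1*, a zinc finger homeodomain repressor of *Cdh1*, rose with both proteins by a small amount. Its level was 1.84, 1.78 and 1.79 with BSA, 1.79, 1.87 and 1.97 with Rspo2, 1.79, 1.96 and 1.87 with Wnt3a, and 2.16, 2.08 and 1.93 with both. Combination array 3 lay among the Rspo2 and Wnt3a arrays, and all 3 combination arrays lay above BSA. The change with both was 0.25 (SE 0.08, adjusted p = 0.0348), and it was 0.07 with Rspo2 and 0.07 with Wnt3a, neither past the threshold. The rise was lost without any 1 BSA array or combination array 1 or 2 (adjusted p up to 0.126), and with quantile normalization it was 0.13 (adjusted p = 0.159). Within slide 3 the combination exceeded Wnt3a array 3 by 0.19.

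*Zeb2*, the paralog of *Zeb1*, had 4 probes, and 3 of them rose with both proteins. On probe A_52_P596008 the level was 0.99, 0.72 and 0.73 with BSA, 0.68, 0.76 and 0.71 with Rspo2, 1.22, 1.16 and 1.13 with Wnt3a, and 1.58, 1.56 and 1.55 with both. Rspo2 overlapped BSA, Wnt3a lay above both of these, and the combination above all. The change was 0.75 with both (SE 0.08, adjusted p = 8.03e-05), or 1.68-fold, 0.35 with Wnt3a (SE 0.08, adjusted p = 0.00901) and -0.10 with Rspo2 (95% interval -0.28 to 0.09, not past the threshold). The combination exceeded Wnt3a by 0.39 (SE 0.08, adjusted p = 0.0226), and the joint change exceeded the sum of the single ones by 0.49 (SE 0.12, adjusted p = 0.0318). The changes against BSA held with each array left out. The difference from Wnt3a was lost without Wnt3a array 1 or 2 or any 1 combination array (adjusted p up to 0.088), and the interaction without BSA array 3, Rspo2 array 2 or 3, Wnt3a array 2, or combination array 2 or 3 (up to 0.0757).

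Of the other 3 probes of *Zeb2* 2 passed with both proteins, in the same direction. The direction of A_52_P587928 was not settled, since its change with both became -0.49 with slide as a term. Probe A_51_P121206, annotated to the same transcript, stood at -0.70, -0.86 and -0.57 with BSA, -0.88, -0.93 and -1.17 with Rspo2, -0.29, -0.67 and -0.74 with Wnt3a, and -0.23, -0.26 and -0.04 with both. Its combination arrays lay above all others, and its change with both was 0.53 (SE 0.13, adjusted p = 0.01), which held with each array left out. Its interaction of 0.67 did not pass (adjusted p = 0.0543). Probe A_52_P526372, at 41.85 to 108.2 intensity units, rose with both by 0.53 (SE 0.18, adjusted p = 0.0397) and had an interaction of 0.98 (SE 0.26, adjusted p = 0.0429). The rise was lost without BSA array 2 or 3, any 1 Rspo2 array, or combination array 1 or 3 (adjusted p up to 0.136), and the interaction without any 1 array other than Wnt3a array 2 (up to 0.0919). With background correction by the normexp model the rise and the interaction of this dim probe became 0.03 and -0.16. Probe A_52_P587928, annotated to a cDNA clone and at 43.85 to 158.2 units, ran from -4.21 to -2.47 and passed in no comparison (change with both 0.11, 95% interval -0.68 to 0.89). Within slide 2 Wnt3a exceeded Rspo2 by 0.45 on A_52_P596008, 0.57 on A_51_P121206 and 0.53 on A_52_P526372, but differed from it by -0.87 on A_52_P587928. Within slide 3 the combination exceeded Wnt3a array 3 by 0.43, 0.56, 0.74 and 0.53 on the same probes.

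**Figure D2:**
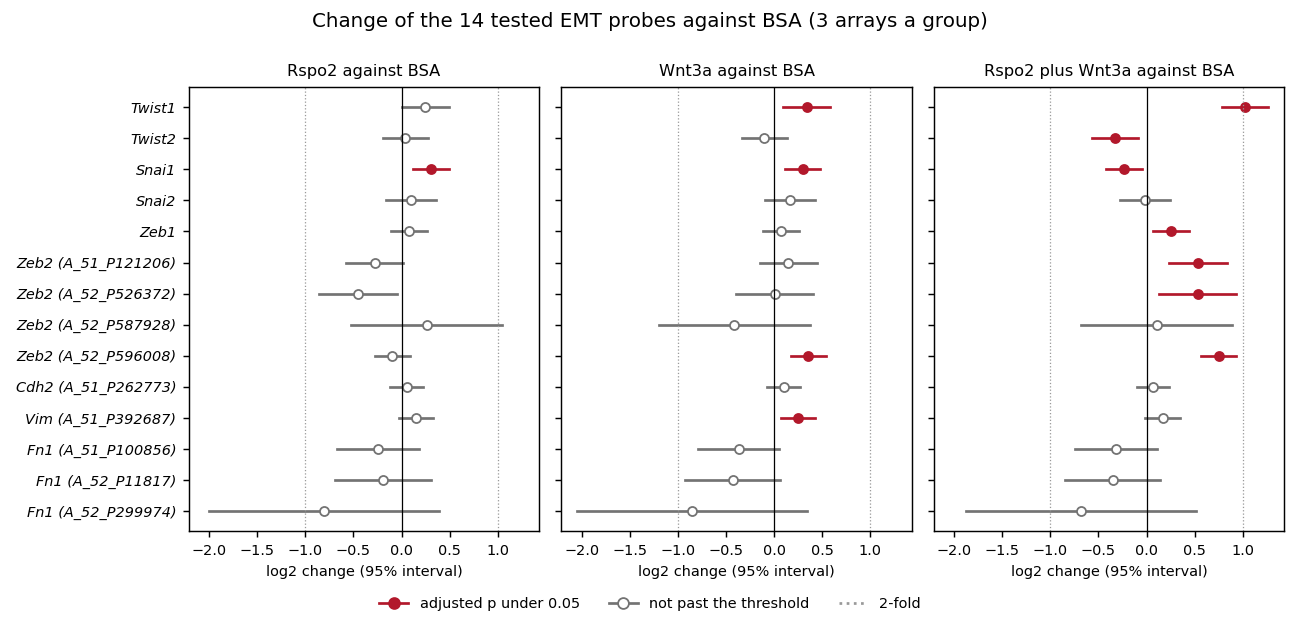
Change of the 14 tested EMT probes against BSA with Rspo2, Wnt3a and both proteins (horizontal axis, log2 change with its 95% interval from the limma fit, 3 arrays a group). Filled red points had an adjusted p under 0.05. *Twist1* with both proteins (1.02) was the 1 point past the dotted 2-fold line with an adjusted p under 0.05. The intervals of *Snai2*, *Cdh2*, *Zeb2* A_52_P587928 and all 3 *Fn1* probes crossed 0 in all 3 panels.

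*Cdh1*, the epithelial cadherin that these factors repress, was not well above background on any of the 12 arrays. The array carried its probe at 10 spots, and 4 of 120 spot readings were well above background. The averaged signal was 3.26 to 12.5 intensity units, or levels of -6.93 to -6.25 in BSA cultures, -7.93 to -6.56 after Rspo2, -7.54 to -7.10 after Wnt3a and -7.49 to -6.42 after both. The lowest level called well above background on an array lay between -5.68 and -4.55. No change of *Cdh1* could be measured, and no fold is given.

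*Cdh2*, the mesenchymal cadherin, was detected on all arrays by probe A_51_P262773 and passed the threshold in no comparison. Its level was 1.28, 1.25 and 1.23 with BSA, 1.30, 1.22 and 1.40 with Rspo2, 1.30, 1.37 and 1.40 with Wnt3a, and 1.43, 1.26 and 1.28 with both. The groups overlapped except that every Wnt3a array lay above every BSA array. The change was 0.05 for Rspo2 (95% interval -0.12 to 0.22), 0.10 for Wnt3a (-0.07 to 0.27) and 0.07 for their combination (-0.10 to 0.24). The other *Cdh2* probes were annotated to cDNA clones and not tested. A_52_P164578 was well above background on 1 array and A_52_P322725 on 4, including 2 of the BSA arrays and none of the combination arrays.

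*Vim*, the intermediate filament of mesenchymal cells, gave 110600 to 152100 intensity units on probe A_51_P392687, and no spot of the array was saturated. Its level was 6.93, 7.05 and 6.87 with BSA, 7.08, 7.10 and 7.12 with Rspo2, 7.11, 7.26 and 7.23 with Wnt3a, and 7.22, 7.11 and 7.02 with both. The Rspo2 and Wnt3a arrays lay above BSA, and combination array 3 lay among the BSA arrays. With Wnt3a it rose by 0.25 (SE 0.08, adjusted p = 0.0365), though this value became -0.16 under quantile normalization (adjusted p = 0.156) and was lost without BSA array 1 or 3, Rspo2 array 2, Wnt3a array 2 or 3, or combination array 2 (up to 0.125). The changes of 0.15 with Rspo2 (adjusted p = 0.208) and 0.17 with both (adjusted p = 0.127) did not pass. Within slides, Rspo2 array 1 exceeded the BSA mean by 0.13, Wnt3a exceeded Rspo2 by 0.08 and the combination differed from Wnt3a array 3 by -0.11. The second *Vim* probe, A_52_P287532, annotated to a cDNA clone, was well above background on no array.

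*Fn1*, which encodes the matrix glycoprotein fibronectin, passed the threshold on none of its 3 probes in any comparison. On probe A_51_P100856, carried at 10 spots, the level was 4.93, 5.20 and 5.50 with BSA, 4.93, 5.03 and 4.94 with Rspo2, 5.20, 4.66 and 4.67 with Wnt3a, and 4.68, 4.76 and 5.24 with both. The SD between its repeated spots on an array was at most 0.05, and the SD between arrays of a group was up to 0.31. Probe A_52_P11817 ran from 3.73 to 4.79 and probe A_52_P299974 from -2.68 to -0.39. On all 3 probes BSA array 3, Wnt3a array 1 and combination array 3 were the highest of their groups. The changes with Wnt3a were -0.37 (95% interval -0.79 to 0.05), -0.43 (-0.92 to 0.07) and -0.85 (-2.05 to 0.34), in the order above. Under the alternatives of the limma fit the adjusted p of A_52_P11817 with Wnt3a ran from 0.0288 to 0.77. The changes with both were -0.32 (95% interval -0.74 to 0.11), -0.35 (-0.85 to 0.14) and -0.68 (-1.87 to 0.51). On A_52_P299974 the SD between combination arrays was 1.17, and without combination array 3 its change with both was -1.32 (adjusted p = 0.0373), past both limits.

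**Figure D3:**
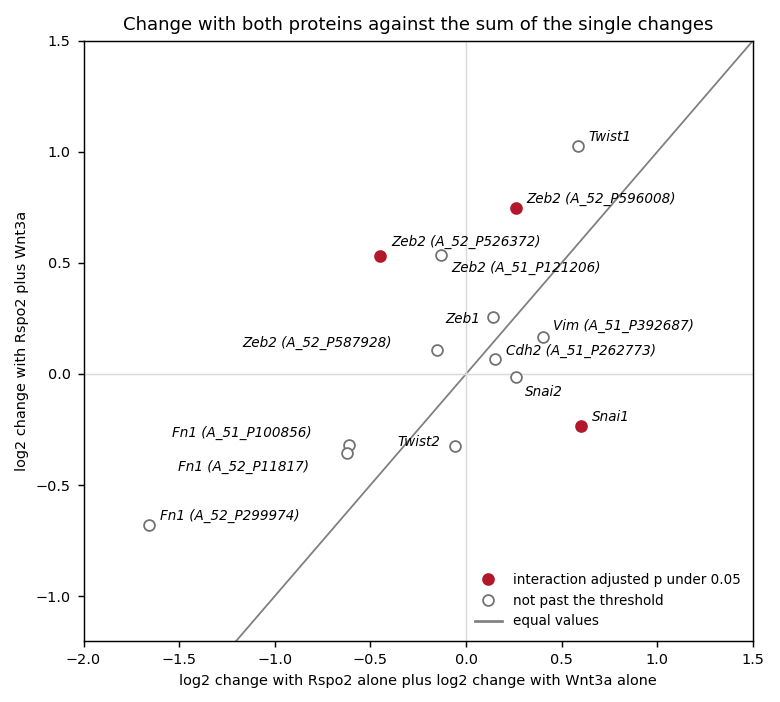
Log2 change with Rspo2 plus Wnt3a (vertical axis) against the sum of the log2 changes with Rspo2 alone and Wnt3a alone (horizontal axis) for the 14 tested EMT probes, with the line of equal values and filled points at an interaction adjusted p under 0.05. *Snai1* lay below the line (0.60 summed, -0.23 with both), *Zeb2* A_52_P596008 above it (0.26 summed, 0.75 with both), and *Zeb2* A_52_P526372 above it (-0.45 summed, 0.53 with both).

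The other genes of the pathway were read from lists chosen by function, with the brightest detected probe of each gene. Their values come only from the fit without a slide term. They were not read with slide as a term, under the other alternatives or with an array left out. The BSA and combination arrays shared no slide for these genes either. Among 20 other EMT transcription factors and their partners 16 were detected. With both proteins 4 rose and 5 fell (median change -0.07, against 0.04 over all detected probes), and 3 were called, where 21.9% of all detected probes rose, 17.3% fell and 5.08% were called. These were *Tcf4*, an E-protein partner of TWIST factors (1.13, SE 0.09, adjusted p = 1.1e-05), *Prrx2*, a homeobox factor of mesenchyme (1.12, SE 0.09, adjusted p = 7.17e-06), and *Sox9* (-1.02, SE 0.14, adjusted p = 0.000274). *Tcf4* ran from 1.47 to 1.61 with BSA and from 2.49 to 2.81 with both, *Prrx2* from 3.27 to 3.49 and from 4.47 to 4.61, and *Sox9* from 1.70 to 2.19 and from 0.82 to 1.06. With Rspo2 alone 3 of the 16 rose and none fell, beside 10.9% and 5.93% of all detected probes, and with Wnt3a alone 3 rose and 2 fell, beside 18.3% and 13.2%. For the combination against Wnt3a 1 rose and 5 fell, beside 1.78% and 2.49%, and none was called. For the interaction 3 of the 16 passed, all lower, beside 5.31% of all detected probes. Of these 2 were called, where 1.93% of all detected probes were called in either direction. They were *Id2* (-1.03, adjusted p = 0.000961) and *Id4* (-1.17, adjusted p = 0.00209). They encode inhibitors of E-protein dimers and are named here after their values were seen. *Id2* ran from 2.47 to 2.67 in BSA cultures, 2.97 to 3.05 after Rspo2, 2.92 to 3.11 after Wnt3a and 2.40 to 2.51 after both, so that, like *Snai1*, it was higher with each protein alone than with BSA and not with both.

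Among 12 genes that hold cells in the epithelial state 11 had a named probe and 3 were detected (*Ovol2*, *Gata3* and *Klf4*), and none passed in any comparison (median change with both 0.23). Among 27 epithelial junction genes 9 were detected. With both proteins 3 rose and 2 fell, beside 21.9% and 17.3% of all detected probes (median -0.17). Of the 9 genes 1 was called, beside 5.08% of all detected probes. This was *Pkp3*, a desmosomal plakophilin, at -1.01 (SE 0.20, adjusted p = 0.00293). Like *Twist1*, it lay close to the 2-fold limit, as did *Sox9* with both and the interaction of *Id2*. With both, *Pkp3* ran from -4.17 to -3.58. The lowest level called well above background on an array lay between -5.68 and -4.55. With Wnt3a 1 rose, and with Rspo2, for the combination against Wnt3a and for the interaction none passed. The junction genes not detected included *Epcam*, *Cldn7*, *Ocln*, *Dsp* and *Crb3*.

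Among 31 mesenchymal markers 30 had a named probe and 25 were detected. All the fibroblast markers above were also in this list, as was *Acta2* of the basal list, so the counts are not separate. With both proteins 6 rose and 10 fell (median -0.24), where 21.9% of all detected probes rose and 17.3% fell. With Wnt3a 5 rose and 7 fell (median -0.23), beside 18.3% and 13.2% of all detected probes. With Rspo2 1 rose and 4 fell (median -0.11), beside 10.9% and 5.93%. For the combination against Wnt3a 1 rose and 3 fell, beside 1.78% and 2.49%. For the interaction 4 passed above the sum of the single changes and 1 below it, beside 3.58% and 5.31%. With both 2 of the 25 were called, beside 5.08% of all detected probes. These were *Itgb3*, the integrin beta-3 subunit (-1.61, SE 0.09, adjusted p = 7.38e-07), and *Pdgfra*, a platelet-derived growth factor receptor (-1.37, SE 0.11, adjusted p = 8.77e-06). *Itgb3* ran from -1.09 to -0.94 with BSA and from -2.65 to -2.59 with both, and *Pdgfra* from 1.13 to 1.46 and from -0.25 to 0.05.

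All 9 genes of transforming growth factor beta signalling, a classical inducer of EMT, were detected. With both proteins 3 rose and 1 fell (median 0.08), beside 21.9% and 17.3% of all detected probes. The ligand *Tgfb2* rose by 2.10 (SE 0.23, adjusted p = 8.79e-05), from between -3.57 and -3.10 with BSA to between -1.80 and -0.88. The receptor *Tgfbr2* rose by 1.66 (SE 0.18, adjusted p = 6.24e-05), from between 1.08 and 1.31 to between 2.55 and 3.13. With Wnt3a 2 rose and 1 fell, beside 18.3% and 13.2%, and with Rspo2 none passed. For the combination against Wnt3a 2 rose and none fell, beside 1.78% and 2.49%, and for the interaction 1 passed, higher, beside 3.58%. *Tgfb2* was called in both (1.42, adjusted p = 0.00622, and 1.25, adjusted p = 0.0433), where 0.747% and 1.93% of all detected probes were called.

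**Figure D4:**
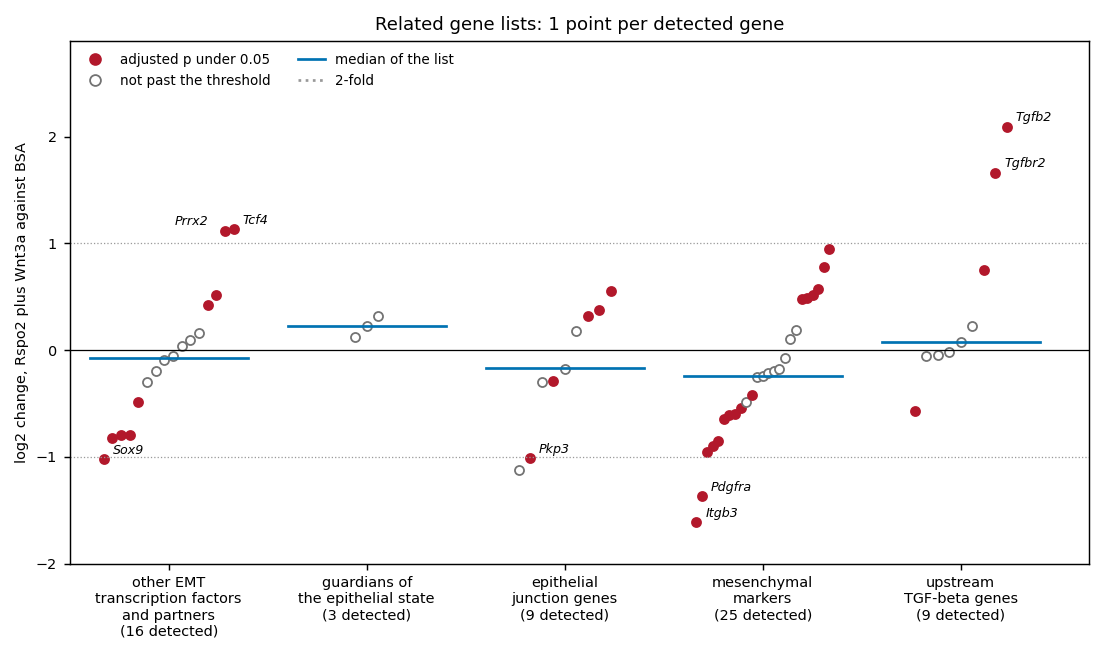
Log2 change with Rspo2 plus Wnt3a against BSA (vertical axis) for each detected gene of 5 related lists, filled at an adjusted p under 0.05, with the median of each list as a blue line. Genes past 2-fold with an adjusted p under 0.05 are named, from *Itgb3* at -1.61 to *Tgfb2* at 2.10.

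Over the 12 arrays the probes whose levels followed *Twist1* most closely, by Pearson correlation, were those of *2610035D17Rik* (r = 0.973), *Kcnj2* (r = 0.971) and *Gadd45a* (r = 0.971). These are descriptions over 4 groups of 3 arrays that share slides. With both proteins *Kcnj2*, a potassium channel gene, changed by 2.93, and the other two by 0.82 each.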

How the data were processed

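Processed signals of 12 arrays were used, 3 per group. The authors deposited scanner output from Agilent Feature Extraction 9.5.3.1, whose intensity values were already background-subtracted, and a table of the ratio of each signal to the 75th percentile of its array (GeneSpring), which served as an alternative. Its column medians ran from 0.05 to 0.08, and its values were linear, not centred on genes, with 0.01 as the lowest. Spots flagged as uneven or as outliers (1327 of 520548 values) were left out, spots of a probe were averaged, and log2 intensity less the array's 75th percentile was taken. No spot was saturated, and no value was imputed. Detected probes were those that all 3 arrays of some group read as well above background.

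A limma fit (lmFit, contrasts, eBayes) over all 12 arrays with 4 group means gave each change, its SE and Benjamini-Hochberg adjusted p over the 22750 detected probes. The interaction was the log2 change with both less the log2 changes with each alone. Scripts ran in R 4.3.3 with limma 3.58.1 and Python 3.11.15, and were tested on simulated data. The number of arrays limits the precision.

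The named genes were the 10 members with every probe, the genes of the related lists called with both proteins, and the 3 genes most like *Twist1* in pattern. *Id2*, *Id4* and the marker genes given with values were named after their values were seen. The members, lists and tests were chosen with earlier results of these data known. The alternatives were normexp background correction (offset 50), quantile normalization, another percentile, other probe filters, the methods' t-test, slide as a term, a replicate block, the authors' table, any fold, and leaving out each array. Same-numbered samples of different groups did not vary together (correlation of deviations -0.41 to 0.27, median 0.01), so the numbers were not taken to pair samples.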

Additional observations from a re-analysis of the deposited data

Results flagged for a closer look

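For 3 EMT probes the change made by Rspo2 differed with and without Wnt3a by the interaction term of the limma fit. For *Snai1* the interaction was -0.84 (adjusted p = 0.00383), with a change of 0.31 for Rspo2 against BSA and of -0.53 for Rspo2 plus Wnt3a against Wnt3a. For *Zeb2* probe A_52_P596008 it was 0.49 (adjusted p = 0.0318), with changes of -0.10 and 0.39. For *Zeb2* probe A_52_P526372 it was 0.98 (adjusted p = 0.0429), with changes of -0.45 and 0.53. With slide as a term the 3 interactions were -0.75, 0.56 and 1.26, in the order above, and none passed (adjusted p = 0.109, 0.196 and 0.178).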

How the results depend on the processing

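Of the 18 changes of EMT probes past the threshold, 7 held with each array left out, and each of the 18 was lost under at least 1 other alternative. The count called with both proteins was 1, and became 0 under quantile normalization, with the percentile over probes bright on all arrays and with slide as a term, 7 at any fold, and 0 to 2 with 1 array left out. It was 0 without BSA array 1 or combination array 1, and 2 without combination array 3, which added *Fn1* A_52_P299974. The other counts were 0 and at any fold became 1 (Rspo2), 4 (Wnt3a), 3 (combination against Wnt3a) and 3 (interaction). Without a filter on dim probes Wnt3a had 1, *Cdh2* A_52_P322725, and the interaction had 1 with the percentile over bright probes and 0 to 1 with 1 array left out (1 without Wnt3a array 2), *Zeb2* A_52_P526372 both times. That percentile moved the interaction of all probes alike, by 0.11 at the median. Less this shift the probe was at 0.98, which is its value without that percentile and under 2-fold. Reversed values were *Vim* with Wnt3a under quantile normalization (-0.16) and the interaction of *Zeb2* A_52_P526372 under normexp (-0.16). Under normexp 15 of the 18 results lost the threshold with their direction kept. The reversed interaction of *Zeb2* A_52_P526372 lost it too (adjusted p = 0.958), and only *Twist1* and *Zeb2* A_52_P596008 with both kept it. Slide as a term ended all 18, and the methods' t-test after adjustment 14 of the 15 it could test. The cause was not tested. Sizes stayed within 1.5 times, with the same direction, for 14 of 18 under normexp and 15 of 18 with slide as a term. The t-test used the same differences of group means as the limma fit, so its sizes could not differ. Normexp moved the median of all probes by 0.14 with Rspo2 and by -0.10 with both, and the percentile over bright probes moved it by -0.12 with Wnt3a and by -0.11 with both. Relative to its shift under normexp *Twist1* with both changed by 1.14. The percentile over bright probes moved every probe of an array alike, so less its shift *Twist1* returned to 1.02 by construction. Under normexp, less its shift, *Snai1* was -0.03 with both and 0.09 with Rspo2, and *Twist2* was -0.11 with both. With the replicate block, a pairing that the samples did not bear out, the count with both stayed at 1 (*Twist1* adjusted p = 0.000526) and 10 of the 18 results were lost. Signal over background limits *Cdh1* and the dim probes of *Zeb2*, *Cdh2* and *Vim*.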
